A study of Mus musculus with 6 samples.

Results

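Intracisternal A particle (IAP) elements are retrovirus-like mobile elements of the mouse genome, named for the particles that their Gag protein forms in the cisternae of the endoplasmic reticulum. A complete element has an internal region, which encodes Gag and Pol, between 2 long terminal repeats (LTRs), which carry the promoter and the polyadenylation signal. Many copies are lone LTRs left after recombination, and in somatic cells most copies are held silent by DNA methylation and by histone H3 lysine 9 methylation placed through KRAB zinc-finger proteins, TRIM28 and SETDB1. The elements described here are the IAP rows of the repeat count tables whose names begin with IAP, apart from the IAPEY subgroup. They comprise 15 of the 1336 rows, 6 internal rows and 9 LTR rows, and all 15 had enough counts to be tested, as had 1193 rows in all.

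The RNA came from cultured fibroblasts of BALB/c mouse embryos 10.5 days old. Cells lacking β-actin (Actb-/-, KO) were compared with wild-type (WT) cells, with 3 libraries of ribosome-depleted total RNA per genotype, described by the submitters as biological replicates. The labels do not say whether replicates came from separate embryos or cultures, so p-values measure the spread between these libraries, which may be partly technical. Because the tables hold repeats and structural RNAs and no protein-coding genes, neither the loss of Actb RNA nor the fibroblast identity was checked.

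Each value is a count of reads summed over every genomic copy of a subfamily. Totals ran from 7708630 to 19288620 counts per library, and ribosomal RNA took 32.4% to 84.8% of them, with the least in KO replicate 2 and WT replicate 1 and the most in KO replicate 1 and WT replicate 2. IAP rows outside IAPEY held 5489, 13961 and 10059 counts in KO replicates 1, 2 and 3, and 18468, 5999 and 10658 in WT replicates 1, 2 and 3. Single rows had between 43 and 10468 counts in a library. Levels are given as normalized CPM, which is CPM (counts scaled to a common library size) after trimmed-mean (TMM) scaling. That scaling is meant to lessen the weight of the rRNA content, but some levels still varied with it. The sum of all rows of the ERVK family, which includes IAP, was 84742 in KO replicate 1 and 81454 in WT replicate 2. It was 21556 in KO replicate 2 and 16549 in WT replicate 1. In these cultures less IAP RNA per cell and fewer cells that transcribe IAP elements cannot be told apart.

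The comparison asked whether IAP RNA differed between KO and WT cells, and whether internal regions and LTRs differed in the same way. In sum, a value given here without a test, IAP internal RNA stood at 0.870 of its WT level in KO cells, and a single row, the internal region IAPLTR3-int, passed the test. The internal sum mainly follows the row IAPEz-int, which held on average 73.1% of the internal counts in KO and 74.8% in WT. The LTR rows in sum were at 0.971 of the WT level, and none of the 9 passed. Of the 15 rows 1 fell and none rose (quasi-likelihood test of edgeR at an adjusted p below 0.05, by Benjamini-Hochberg over all rows), a share close to the 5.78% of all 1193 rows that were called in either direction and the 3.6% called lower. Without adjustment 5 of the 15 rows had a p below 0.05, against 249 of all 1193. Among these 5, IAPLTR2a2_Mm was higher in KO, at a log2 fold change of 0.26, and the others were lower. The median log2 fold change was -0.08 over the 15 rows and 0.01 over all rows. It was below 0 in 12 of the 15 rows and in 47.7% of all rows. Rows of related subfamilies may share reads, since the sources used here do not say how reads that match more than 1 subfamily were assigned, and they are not taken as independent measurements.

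**Figure D1:**
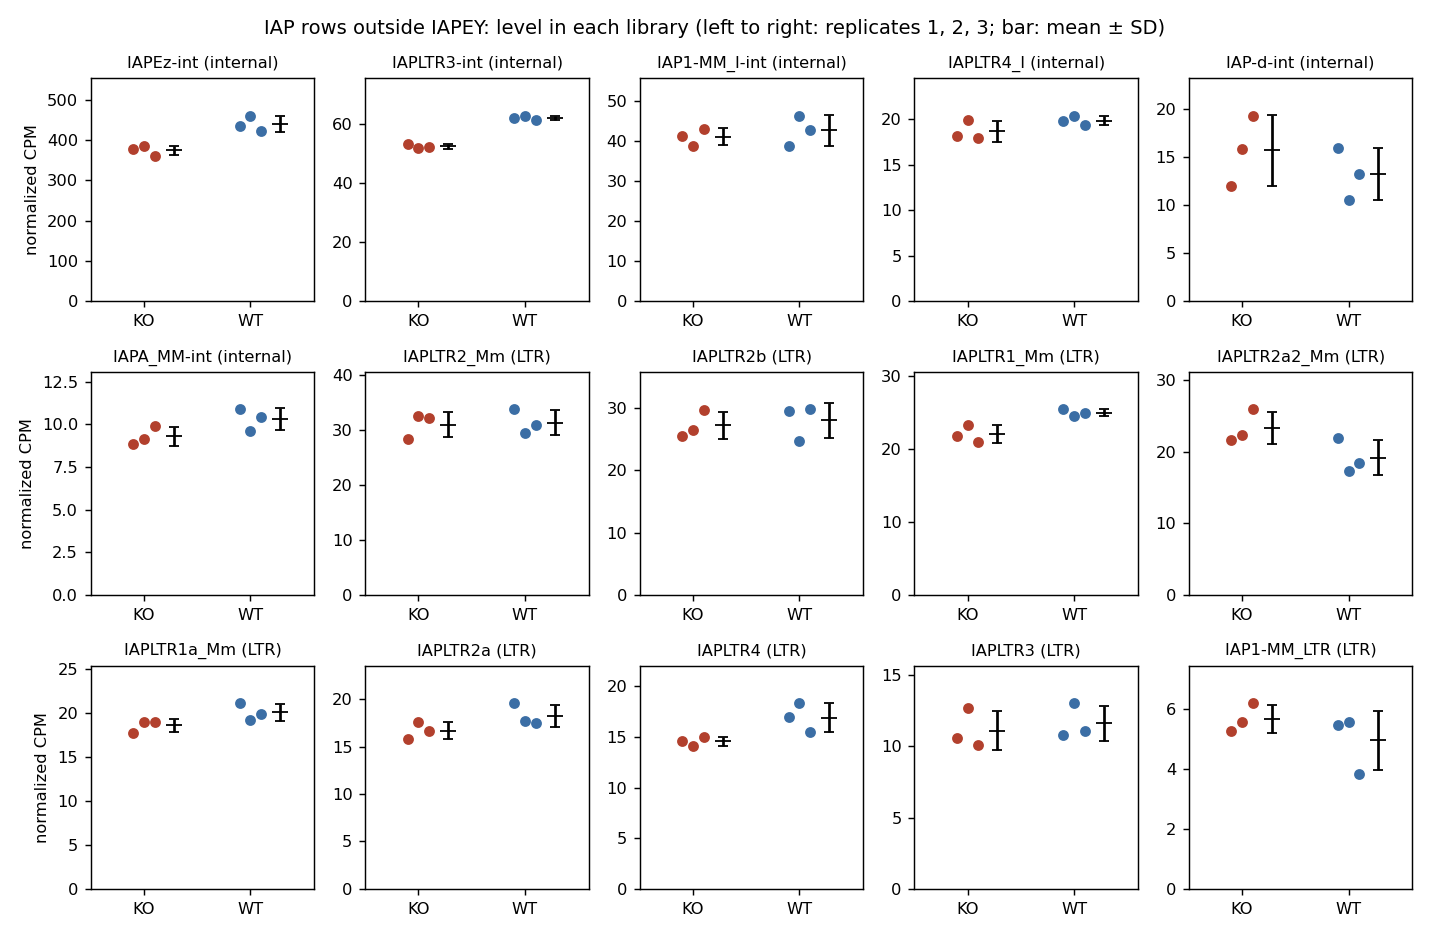
Level of each of the 15 IAP rows, in normalized CPM on linear axes that start at 0, in the 3 KO libraries (red) and the 3 WT libraries (blue), with mean ± SD as a black bar. IAPEz-int, IAPLTR3-int and IAPLTR1_Mm lie lower in every KO library than in any WT library, whereas IAP-d-int spreads widely within both genotypes.

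IAPEz-int, the main IAP internal region, held most of the reads. It took 54.9% ± 1.59 of the IAP counts in KO cells and 57.6% ± 1.27 in WT cells (SD, n = 3 each). It had 378, 384 and 360.4 normalized CPM in KO replicates 1, 2 and 3, against 434, 461 and 423 in WT replicates 1, 2 and 3. Every KO library lay below every WT library. Its log2 fold change was -0.23 ± 0.06 (standard error), with a 95% interval of -0.38 to -0.09, and the row did not pass over all rows (edgeR adjusted p = 0.0743). It passed with DESeq2 (adjusted p = 0.0226), with limma-voom (adjusted p = 0.0354) and in edgeR with the rRNA level as a covariate (adjusted p = 0.0379), settings that called 6.59%, 5.28% and 7.71% of all rows. The row passed in none of the other settings, which included leaving out any single library. In those settings its edgeR adjusted p ran from 0.0635, with a mean of at least 50 counts required, to 0.998, with total-count scaling. Without the libraries lowest in rRNA, KO replicate 2 and WT replicate 1, its log2 fold change was -0.25 (edgeR adjusted p = 0.315).

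IAPLTR3-int, the internal region annotated with the IAPLTR3 repeat, was the row that fell. It had 53.3, 51.8 and 52.1 normalized CPM in the KO libraries, against 62.0, 62.8 and 61.2 in the WT libraries. The libraries of each genotype lay within a narrow band, at 52.4 ± 0.783 in KO and 62.0 ± 0.783 in WT (SD, n = 3 each). The bands were well apart. Their coefficients of variation, 1.49% in KO and 1.26% in WT, were the smallest of all IAP rows outside IAPEY. With counts of 435 to 1495 per library, counting error alone would give a wider spread. The narrow band is therefore no measure of how well replicates repeat. IAPEz-int, at -0.23 ± 0.06, had nearly the same fold change without being called, so the call of IAPLTR3-int rests on its smaller spread. The log2 fold change of IAPLTR3-int was -0.24 ± 0.04 (standard error), with a 95% interval of -0.34 to -0.15 (edgeR adjusted p = 0.0133). The call was lost at fold changes of -0.24 with DESeq2 (adjusted p = 0.0768) and in edgeR without KO replicate 2 (adjusted p = 0.0830), without WT replicate 1 (adjusted p = 0.0545) and without WT replicate 3 (adjusted p = 0.0788). It was also lost in edgeR without both libraries lowest in rRNA (-0.22, adjusted p = 0.255) and with total-count scaling (-0.62, adjusted p = 0.998), which shifted the median of all rows by -0.37. With the rRNA covariate it was -0.25 (edgeR adjusted p = 0.0253).

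The other 4 internal rows overlapped between genotypes. IAP1-MM_I-int had 41.3, 38.9 and 43.2 normalized CPM in KO and 38.8, 46.4 and 42.9 in WT libraries. IAPLTR4_I had 18.1, 20.0 and 17.9 in KO and 19.8, 20.4 and 19.3 in WT libraries. Their log2 fold changes, -0.04 and -0.08, had 95% intervals of -0.21 to 0.13 and -0.25 to 0.09, and neither row passed. IAPA_MM-int had 8.82, 9.14 and 9.92 normalized CPM in KO and 10.9, 9.62 and 10.4 in WT libraries, with a log2 difference of -0.16 (edgeR adjusted p = 0.441). IAP-d-int was the most variable row, with 12.0, 15.8 and 19.4 normalized CPM in KO and 16.0, 10.5 and 13.2 in WT libraries. Its coefficient of variation was 23.4% in KO and 20.5% in WT, against medians over the 15 rows of 5.98% in KO and 7.03% in WT. Within each genotype its lowest library was the one with the most rRNA. In the fit with the rRNA covariate its log2 fold change was 0.32 (edgeR adjusted p = 0.226). Without that term it was 0.23 and missed the threshold (edgeR adjusted p = 0.533). It ran from 0.06 without KO replicate 3 to 0.41 without WT replicate 1, and was -0.24 when libraries were scaled by total counts.

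**Figure D2:**
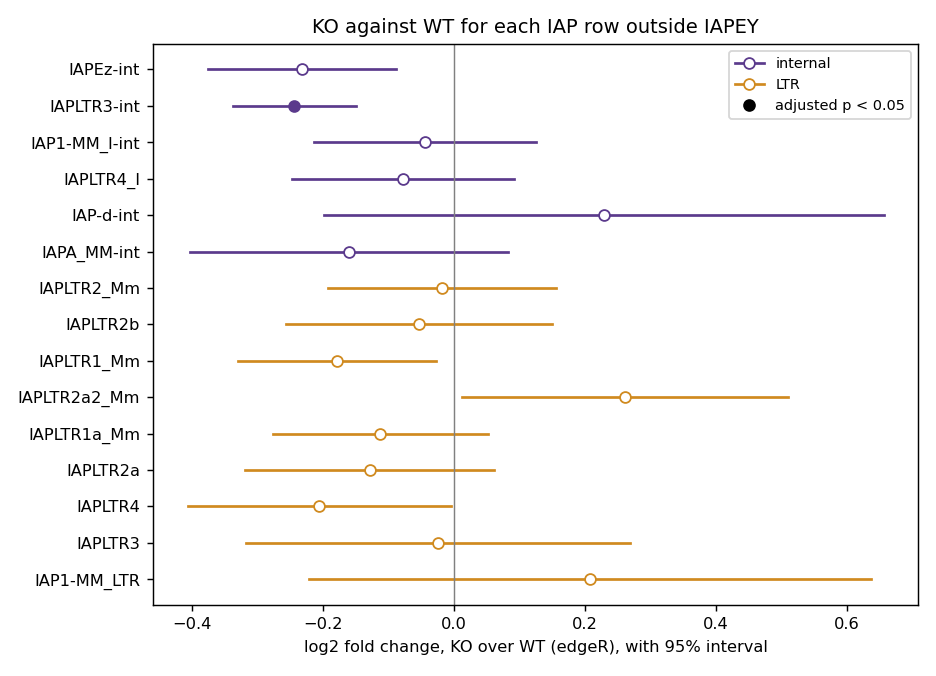
Log2 fold change of KO over WT for each IAP row from edgeR, with its 95% interval as a line, for internal rows (purple, above) and LTR rows (orange, below); the filled point passed at an adjusted p below 0.05. IAPLTR3-int, at -0.24, is the filled point, and IAP-d-int, IAPLTR2a2_Mm and IAP1-MM_LTR are the points to the right of 0.

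Among the LTR rows, none of the 9 passed in edgeR, 3 had an unadjusted p below 0.05, and the lowest adjusted p was 0.167. Of those 3, IAPLTR1_Mm and IAPLTR4 were lower in KO and IAPLTR2a2_Mm was higher. IAPLTR1_Mm, an LTR that flanks IAPEz-int in many young copies, had 21.8, 23.4 and 21.0 normalized CPM in the KO libraries, against 25.5, 24.6 and 25.0 in the WT libraries. All KO libraries lay below all WT libraries, and the log2 fold change was -0.18 ± 0.07 (standard error), with a 95% interval of -0.33 to -0.03 (edgeR adjusted p = 0.167). IAPLTR4, the LTR that shares its name with IAPLTR4_I, had 14.6, 14.1 and 15.0 in KO and 16.9, 18.3 and 15.5 in WT libraries, also without overlap, at -0.21 (edgeR adjusted p = 0.229). In IAPLTR1a_Mm the gap between the genotypes was small, with 17.8, 19.0 and 19.0 normalized CPM in KO and 21.1, 19.2 and 19.8 in WT libraries, at -0.11 (edgeR adjusted p = 0.425).

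With IAPEz-int and IAPLTR3-int, these 3 LTRs were the 5 of 15 rows in which every KO library lay below every WT library, which was so in 13.4% of all tested rows. In none of the 15 did every KO library lie above every WT library, which was so in 12.4% of all tested rows.

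None of the 4 IAPLTR2 types passed, and differences between them were not tested. IAPLTR2a2_Mm had the highest fold change of the 15 rows, with 21.7, 22.3 and 25.9 normalized CPM in KO and 21.9, 17.3 and 18.4 in WT libraries. KO replicate 1 lay just below WT replicate 1, so the genotypes overlapped. Its log2 fold change was 0.26 ± 0.11 (standard error), with a 95% interval of 0.01 to 0.51, and missed the threshold (edgeR adjusted p = 0.218). It was -0.21 when libraries were scaled by total counts. As a share of all IAP counts, which does not depend on library scaling but does depend on IAPEz-int, the main part of those counts, it took 3.42% ± 0.345 in KO and 2.52% ± 0.320 in WT (SD, n = 3 each), without overlap between the genotypes. The share of IAPLTR4_I, 2.74% ± 0.123 in KO and 2.60% ± 0.0148 in WT, also lay higher in every KO library than in any WT library. So did that of IAP1-MM_LTR, at 0.833% ± 0.0709 in KO and 0.649% ± 0.115 in WT. For IAPLTR4_I the gap was narrow, 2.64% in KO replicate 3 against 2.62% in WT replicate 2, at 266 and 157 counts. The WT spread of that row was smaller than counting error alone would give. The shares of IAPEz-int and of IAPLTR3-int (7.69% ± 0.227 in KO and 8.13% ± 0.108 in WT) lay lower in every KO library. Shares add to a fixed total, so a lower share of IAPEz-int raises others. How often rows outside the 15 separate in such shares was not computed. The log2 fold change of IAPLTR4_I itself was -0.08.

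The other IAPLTR2 types lay closer to 0. IAPLTR2_Mm had 28.3, 32.5 and 32.1 normalized CPM in KO and 33.7, 29.4 and 30.9 in WT libraries, a log2 fold change of -0.02. IAPLTR2b had 25.5, 26.4 and 29.5 in KO and 29.5, 24.7 and 29.7 in WT libraries, at -0.05. The genotypes overlapped in both. IAPLTR2a had 15.8, 17.6 and 16.7 in KO and 19.6, 17.7 and 17.5 in WT libraries, at -0.13, with KO replicate 2 above WT replicate 3.

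The remaining LTR rows were the least counted of the 9. IAPLTR3, the LTR named with the internal row that fell, had 10.5, 12.7 and 10.1 normalized CPM in KO and 10.7, 13.0 and 11.1 in WT libraries. The genotypes overlapped, and its log2 fold change of -0.02 had a 95% interval of -0.32 to 0.27, which holds the value fitted for IAPLTR3-int. IAP1-MM_LTR had 5.27, 5.56 and 6.21 in KO and 5.48, 5.59 and 3.83 in WT libraries, where WT replicate 3 stood below the rest. Its log2 fold change was 0.21 (edgeR adjusted p = 0.579) and, scaled by total counts, -0.22.

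Summed by region, the internal rows had 511, 519.7 and 503 normalized CPM in the KO libraries, against 582, 610.3 and 570.2 in the WT libraries. All KO libraries lay below all WT libraries, at 511 ± 8.41 in KO and 587 ± 20.7 in WT (SD, n = 3 each), a log2 ratio of means of -0.20. IAPEz-int held 71.7% to 75.5% of the internal counts of a library, so this sum is mainly that row. The LTR rows had 161, 174 and 176 in the KO libraries, against 184, 169.8 and 172 in the WT libraries. These overlapped, at 170.1 ± 7.78 in KO and 175 ± 7.94 in WT, a log2 ratio of -0.04, which was -0.0057 without KO replicate 1 and -0.0051 without WT replicate 1. All IAP rows outside IAPEY summed to 681 ± 10.7 normalized CPM in KO and 763 ± 19.4 in WT, without overlap. As a share of counts outside structural RNA they took 0.303% ± 0.0906 in KO and 0.340% ± 0.105 in WT, with overlap. The separation thus depended on the scaling, with TMM factors from 0.423 in KO replicate 1 to 3.13 in WT replicate 1. Sums over the rows were not tested, because the rows were chosen with earlier results of these data known.

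The ratio of summed internal to summed LTR counts, in which library scaling cancels, was 3.17, 2.99 and 2.86 in KO libraries and 3.16, 3.59 and 3.32 in WT libraries. It averaged 3.01 ± 0.154 in KO and 3.36 ± 0.221 in WT (SD, n = 3 each), and KO replicate 1 lay just above WT replicate 1. In that pair of libraries the LTR rows took 24.0% of IAP counts in KO replicate 1 (exact Clopper-Pearson 95% interval 22.9% to 25.1%, counting error only) and 24.1% in WT replicate 1 (23.4% to 24.7%). With IAPEz-int left out of the internal sum the ratio was 0.807 ± 0.0237 in KO and 0.847 ± 0.0420 in WT, again with overlap.

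**Figure D3:**
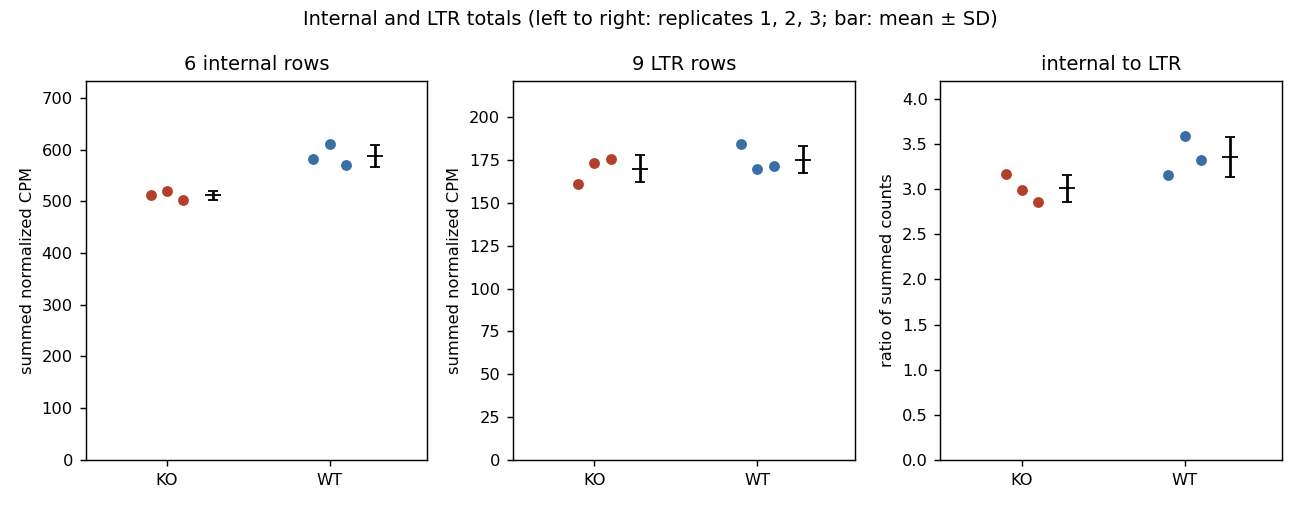
Summed normalized CPM of the 6 internal rows and of the 9 LTR rows, and the ratio of their summed counts, in each KO library (red) and WT library (blue), with mean ± SD as a black bar and axes from 0. The internal sums, mostly IAPEz-int, separate the genotypes, at 503 to 519.7 in KO and 570.2 to 610.3 in WT. The LTR sums and the ratios overlap.

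The difference between internal and LTR response was compared within libraries for 6 pairs of an internal row and an LTR row. With 3 libraries per genotype the exact permutation test cannot reach 0.05, so no pair could have passed. The log2 ratio of IAPEz-int to IAPLTR1_Mm differed by -0.05 between KO and WT, and the SD within a genotype was 0.04 in KO and 0.08 in WT. The ratio to IAPLTR1a_Mm differed by -0.12, and that to IAPLTR2_Mm by -0.21, with SDs of 0.13 in KO and 0.14 in WT. IAPLTR3-int to IAPLTR3 differed by -0.17, with SDs of 0.19 in KO and 0.14 in WT. IAP1-MM_I-int to IAP1-MM_LTR differed by -0.26, and IAPLTR4_I to IAPLTR4 by 0.12, the only pair in which the internal row was relatively higher in KO. Exact two-sided permutation p-values ran from 0.2 to 0.6 (n = 3 per genotype), with Benjamini-Hochberg adjusted p of 0.36 or 0.6 over the 6 pairs, in a design whose smallest possible p is 0.1. In all 6 pairs the ratios of the genotypes overlapped.

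Related groups of the same retroviral family, ERVK, were read from the same fit, and differences between groups of rows were not tested. Of 10 IAPEY rows 2 fell, IAPEY5_I-int at -0.59 (edgeR adjusted p = 0.00872) and IAPEY3_LTR at -0.60 (edgeR adjusted p = 0.00899). Both were larger changes than in any of the 15 rows, and 3.6% of all tested rows were called lower. The group did not fall as a whole, with a median of 0.05, 5 rows above 0 and 5 below. The IAPEY sum was at 0.970 of the WT level, with overlap. The most counted IAPEY row, IAPEY3-int, was at 0.13 (edgeR adjusted p = 0.115). Of 5 ETn/MusD rows 4 rose, with a group median of 0.55, where 2.18% of all tested rows were called higher. Scaled by total counts, none of the 10 IAPEY rows and none of the 5 ETn/MusD rows passed in edgeR, as no row of the whole table did, and the ETn/MusD median was 0.20. Of 11 MMERVK10C and RLTR10 rows none passed in edgeR, with 1 at an unadjusted p below 0.05 and a median of 0.12, or -0.27 when scaled by total counts.

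**Figure D4:**
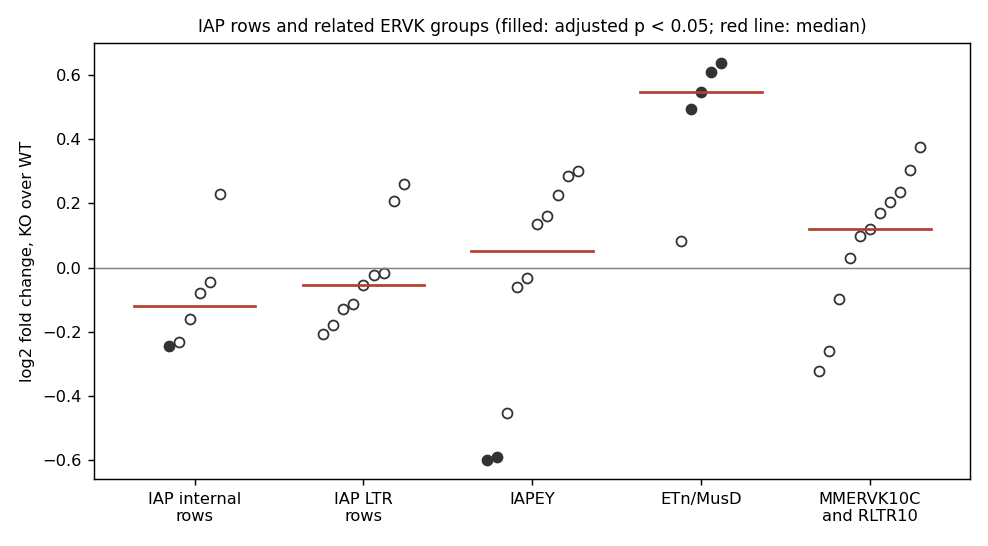
Log2 fold change of KO over WT of every tested row of 5 ERVK groups from the same edgeR fit; filled points passed at an adjusted p below 0.05 and red lines are group medians. IAP internal and LTR rows lie between -0.24 and 0.26, while 2 IAPEY rows lie at -0.59 and -0.60 and 4 ETn/MusD rows between 0.49 and 0.64.

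IAPEz-int was also set, within libraries, against the most counted row of each group. Its count was 0.552, 0.594 and 0.605 of that of MMETn-int, an ETn internal region, in KO libraries and 1.12, 1.01 and 1.01 of it in WT libraries. It was 5.32, 5.25 and 4.98 times that of IAPEY3-int in KO libraries and 6.40, 7.18 and 6.51 times in WT libraries. The genotypes did not overlap in either ratio, and both reached p = 0.1, the smallest possible in an exact two-sided permutation test of 3 against 3 libraries (adjusted p = 0.15 over 3 ratios). MMETn-int was itself called higher in KO, at 0.61 (edgeR adjusted p = 0.00556), while IAPEz-int was at -0.23. The ratio to MMETn-int thus reflects the rise of that row more than the level of IAPEz-int. Relative to RLTR10-int the ratio was 2.87, 2.69 and 2.51 in KO and 2.78, 3.25 and 2.85 in WT libraries, with overlap (exact two-sided permutation p = 0.3).

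The rows outside the 15 whose profile over the 6 libraries was closest to that of IAPEz-int came from several repeat classes. Among 925 candidates with a mean of at least 50 counts, the smallest root mean square difference in centred log2 level was that of MT-int (0.0289), a MaLR internal region. It was followed by RLTR25B, an ERVK LTR (0.0306), MER58B, a DNA transposon (0.0364), BC1_Mm, a small cytoplasmic RNA (0.0370), and U6, a spliceosomal RNA (0.0400). Their log2 fold changes ran from -0.26 to -0.19. That range follows from the selection, since rows picked for a profile close to that of IAPEz-int have a similar fold change. Among the IAP rows the closest were IAPLTR3-int (0.0398), IAPLTR1_Mm (0.0584) and IAPLTR4 (0.0663), and the farthest were IAP-d-int (0.380) and IAPLTR2a2_Mm (0.304).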

How the data were processed

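Ribosome-depleted total RNA of 6 libraries, 3 KO and 3 WT, was sequenced. Titles gave the group and replicate number of each library. The submitters' processing notes name FastQC 0.11.5, Trimmomatic, Bowtie2 and the builds mm10 and GRCm38. The sources used here do not give the counting tool, repeat annotation, strand setting or handling of reads with several matches. What the authors deposited is a table of estimated counts per repeat row and library, not normalized, in which every value was already whole. Reads from a copy inside a gene's intron or untranslated region count in the same row as reads from transcription that starts in the repeat.

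Rows were filtered with filterByExpr, scaled by TMM and tested for KO against WT by the quasi-likelihood test of edgeR 4.0.16 in R 4.3.3 over all 1193 rows that passed (143 were removed), with Benjamini-Hochberg adjustment and a threshold of 0.05. Log2 fold changes are KO over WT. Rows named -int or ending in _I were taken as internal and the others as LTRs. Ratios within libraries used counts plus 0.5 and exact permutation tests. Every IAP row is named, with, of each related group, its most counted row and, for IAPEY, the called rows. Row lengths are not in the tables, so levels are not compared between rows. The rows, lists and tests were chosen with earlier results of these data known.

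Alternatives were other scalings and filters, DESeq2 1.42.0, limma-voom (limma 3.58.1), a replicate block, an rRNA covariate and leaving out libraries. Over the raw counts of all rows, rRNA included, replicates differed by far more than sampling noise (chi-square over degrees of freedom of at least 442 for each pair within a genotype). The value was not computed for the IAP rows alone.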

Additional observations from a re-analysis of the deposited data

How the results depend on the processing

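The count of IAP rows that fell, 1 as reported, was 0 with total-count scaling (0 at an unadjusted p below 0.05 in edgeR), 0 with the replicate block and 0 without both libraries lowest in rRNA (3 each at an unadjusted p below 0.05 in edgeR), 2 with limma-voom and 2 with the rRNA covariate. It was 0 to 1 when single libraries were left out, and 1 with the remaining settings, though with DESeq2 that row was IAPEz-int. No setting called a row higher. With total-count scaling the internal, LTR and combined totals had log2 ratios of -0.55, -0.43 and -0.52, and IAP-d-int, IAPLTR2a2_Mm and IAP1-MM_LTR turned to -0.24, -0.21 and -0.22. With IAPEY rows included the internal total was -0.15. The summed internal-to-LTR log2 ratio, -0.16, ran from -0.20 to -0.11 when single libraries were left out.

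Rows near 0 changed sign. When single libraries were left out, IAPLTR3 ran from -0.16 to 0.049, IAPLTR2_Mm from -0.058 to 0.046 and IAP1-MM_I-int from -0.12 to 0.0082. IAPLTR3 was 0.0032 with limma-voom. IAPLTR2_Mm was 0.020 with the rRNA covariate and 0.018 without both libraries lowest in rRNA, where IAPLTR2b was 0.021. The cause was not tested. Pair ratios kept their direction in every setting.

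Nothing in the labels says that equal replicate numbers mark a shared litter or batch, and deviations of libraries with number 1, 2 or 3 correlated at -0.63, -0.59 and 0.06 between the genotypes. Of 6 libraries 1 correlated best with its own number, and the libraries lowest in rRNA, KO replicate 2 and WT replicate 1, correlated at 0.69. With the replicate block 0 of the 15 rows passed (lowest adjusted p = 0.0827, for IAPLTR3-int at -0.24), and 24 of all rows were called.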
